A study of Drosophila melanogaster with 3 samples.

Results

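Of the 8858 peaks of CG18599-GFP chromatin immunoprecipitation that passed the irreproducible discovery rate (IDR) step in whole fly embryos, 1275 (14.4%) lay deep in introns. A peak was counted as deep intronic when its summit fell inside the span of a protein-coding gene, in no exon of a protein-coding gene, and more than 3 kb and at most 10 kb from the nearest protein-coding transcription start site (TSS). Within the IDR list the rule used position only, so base composition and host gene identity were free to vary. Signal and replicate support were already limited, since the IDR list was made from all 3 replicates and keeps peaks on which they agree. All 3 biological replicates, which formed a single group, were embryos of both sexes aged 0 to 24 h, in which every stage and tissue was mixed. They came from 1 transgenic line stably expressing CG18599 with a C-terminal green fluorescent protein, and an anti-GFP antibody was used on chromatin sonicated to 200 to 800 bp. No input or untagged chromatin was analysed here, so no value has a background measured beside it, and what could be compared were classes of peaks, gene groups and lists.

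Long introns of the fruit fly hold many of the enhancers and silencers that set when and where developmental genes are transcribed, and such elements can act on the host gene or on a neighbour. CG18599 is annotated as a homeobox gene. Homeodomain proteins grip A/T-rich DNA, with many of them favouring a TAAT core and paired or symmetric versions of it such as TAATTA. A peak shows where the tagged protein was recovered with DNA, not that it touched that DNA directly or changed transcription there.

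The summit windows of the 8 strongest of these peaks outside an arm whose sequence is not shown here are given first, because they show the range of composition under the best recovered peaks. Each is 101 bp of the plus strand of the RefSeq Release 6 assembly (dm6), 5′ to 3′, centred on the summit, and capitals mark TAAT on either strand.
CG32486, chr3L:3060720-3060820: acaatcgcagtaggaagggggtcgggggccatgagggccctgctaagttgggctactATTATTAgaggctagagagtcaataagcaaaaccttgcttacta
Dys, chr3R:19499202-19499302: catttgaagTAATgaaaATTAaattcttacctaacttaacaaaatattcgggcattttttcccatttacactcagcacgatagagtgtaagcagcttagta
tara, chr3R:16236927-16237027: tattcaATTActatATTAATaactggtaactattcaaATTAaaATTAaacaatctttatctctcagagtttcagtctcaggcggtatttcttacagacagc
Kdm2, chr3R:9057521-9057621: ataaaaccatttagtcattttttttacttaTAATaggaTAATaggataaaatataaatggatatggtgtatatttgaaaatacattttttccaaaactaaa
tara, chr3R:16247782-16247882: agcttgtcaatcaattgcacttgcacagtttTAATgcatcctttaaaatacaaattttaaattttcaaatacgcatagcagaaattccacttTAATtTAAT
simj, chr3L:10682965-10683065: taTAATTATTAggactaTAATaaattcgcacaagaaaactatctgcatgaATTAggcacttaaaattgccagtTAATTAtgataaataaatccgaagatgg
trx, chr3R:14283829-14283929: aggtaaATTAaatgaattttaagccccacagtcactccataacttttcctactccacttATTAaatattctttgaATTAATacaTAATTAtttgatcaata
Hr4, chrX:1951872-1951972: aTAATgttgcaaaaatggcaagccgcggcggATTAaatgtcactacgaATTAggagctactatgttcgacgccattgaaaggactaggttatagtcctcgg
All 8 windows hold TAAT on at least 1 strand. TAAT is common, however, being in 82.4% of the summit windows of the 319 strongest deep intronic peaks. It was also in 61.5% of windows centred 500 bp from deep intronic summits, so its presence in all 8 does not by itself set them apart. The window of the Lrch peak, at IDR rank 196, holds TAAT on neither strand. The palindrome TAATTA is present in simj, where it occurs 2 times, and in trx, where it occurs 1 time. A/T content runs from 50.5% at CG32486 to 81.2% at Kdm2. The Dys window holds AGTGTA 2 times over both strands, a word described further on.

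A weaker summit of tara, chosen for contrast after its values were seen, shows the other end of the range. It ranked 6213 in the IDR list, and its window is 31.7% A/T with TAAT on neither strand.
tara, chr3R:16239630-16239730: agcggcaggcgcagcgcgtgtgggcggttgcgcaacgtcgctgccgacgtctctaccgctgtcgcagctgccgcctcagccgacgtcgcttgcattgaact

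The deep intronic summits were spread over 17.9 Mb of intron that satisfied the same rule, called their territory from here on, which makes up 13.4% of the chromosome arms. This gave 71.1 summits per Mb. The strongest 8858 entries of each replicate, called its top list, gave 70.8 ± 4.69 summits per Mb (SD, n = 3). Over the replicates, promoters (within 500 bp of a TSS) held 210 ± 18.7 summits per Mb, introns between 0.5 and 3 kb from a TSS, called near intronic, held 115 ± 1.19, and distal intergenic DNA at the same 3 to 10 kb held 50.1 ± 5.34. Deep introns therefore held fewer summits per Mb than promoters and near introns and more than distal intergenic DNA, with no overlap between the replicate values of these classes. The arms were alike except for the small chromosome 4, which held 2 of the summits at 7.51 per Mb. Of the others, 2L held 223, 2R 226, 3L 252, 3R 298 and X 274, between 66.5 and 74.8 per Mb.

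Within introns, the density of summits fell with distance from the TSS and kept falling inside the deep intronic range. It was 145 ± 3.14 per Mb at 0.5 to 1 kb, 80.7 ± 4.65 at 3 to 4 kb and 53.3 ± 9.10 at 9 to 10 kb (SD, n = 3). In the last of these bins the replicates read 46.3, 50.02 and 63.6, all below the lowest replicate value of 77.7 at 3 to 4 kb. Beyond the limit of the rule, at 10 to 20 kb, the density was 53.2 ± 3.72 per Mb, within the replicate spread of the bin before it. Around the lower limit of the rule, the authors' signal value had a median of 372.5 for the 197 intronic summits up to 500 bp short of it and of 400.7 for the 165 up to 500 bp past it. Around the upper limit, the median was 410.8 for the 40 summits up to 500 bp inside it and 350.1 for the 51 up to 500 bp outside it.

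**Figure D1:**
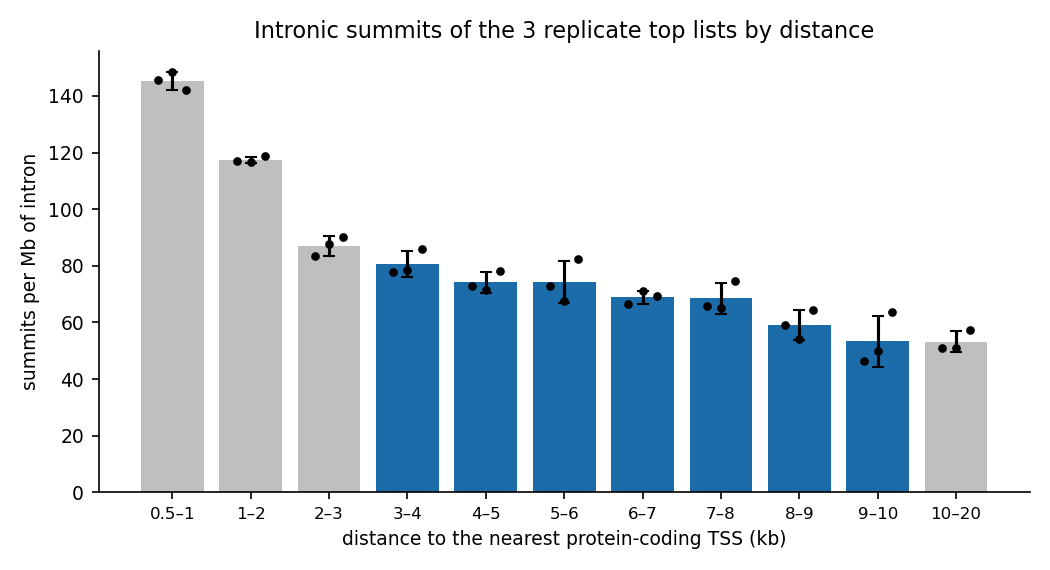
Intronic summits per Mb of intron (y axis) by distance to the nearest protein-coding TSS in kb (x axis), as the mean of the 3 replicate top lists with SD bars and 1 point per replicate. Blue bars lie inside the deep intronic range, where the mean went from 80.7 in its first bin to 53.3 in its last.

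Deep intronic peaks were on the whole of middling strength. The signal value is the authors' own, its scale is not stated in the labels, and it served to rank peaks within a list and for nothing else. Its median was 371.8 for the deep intronic peaks (range 223.7 to 4000.4) and 389.2 for all IDR peaks. The strongest deep intronic peak ranked 65 among IDR peaks, and 5 stood in the top 100, 36 in the top 500 and 87 in the top 1000. Deep intronic peaks made up 8.80% of the 886 strongest IDR peaks and 17.4% of the 885 weakest, while promoter peaks went from 54.7% to 29.3%. Above the median of the IDR list stood 594 deep intronic peaks (46.6%), against 57.3% of promoter peaks (10.7 percentage points more; odds ratio 0.649, Fisher's exact test, two-sided, adjusted p = 2.58e-10 over 3 comparisons). By the same exact test, near intronic peaks stood above it in 51.02% (adjusted p = 0.0253) and distal intergenic peaks in 45.1% (adjusted p = 0.558, so no difference was shown). The difference from near introns was lost by the exact test when peaks were required in replicates 2 and 3 only (adjusted p = 0.0538), in replicates 1 and 2 only (0.272), and when 1 summit was kept per cluster (0.0739). Peaks are not independent replicates, so these p-values describe the lists and not the spread between embryos.

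Replicates recovered most deep intronic peaks, but the IDR step had selected these peaks for agreement between the same replicates. The shares below therefore describe the list and are not independent support for it. Of the 1275 summits, 899 (70.5%) had a top-list summit within 250 bp in all 3 replicates, 245 in 2, 125 in 1 and 6 in none. Replicate 1 recovered 84.2%, replicate 2 86.6% and replicate 3 88.9%, with a mean of 86.6 ± 2.35% (SD, n = 3). Promoter peaks behaved otherwise, with 88.8% and 90.8% in replicates 1 and 2 and 81.4% in replicate 3. Recovery in all 3 top lists did not differ by the test between the classes, at 70.2% of promoter, 72.0% of near intronic and 70.2% of distal intergenic peaks (Fisher's exact test, adjusted p = 0.885 for each against deep intronic peaks). The balance turned on replicate 3, whose top list held 15.4% deep intronic and 32.6% promoter summits, against 13.8% and 37.9% in replicate 1 and 13.7% and 38.5% in replicate 2. Without replicate 3, deep intronic peaks were recovered less often, with a difference of -5.93 percentage points from promoter peaks (exact test, adjusted p = 3.31e-05) and of -3.60 points from near intronic peaks (adjusted p = 0.0285). With the whole replicate lists in place of the top lists the difference from promoter peaks turned to 5.80 points more (exact test, adjusted p = 1.61e-12), and in the strongest 50% of the IDR list to 4.80 points more (adjusted p = 5.60e-06), so its direction depended on these choices. Over the 1236 deep intronic peaks found in all 3 whole replicate lists, ranks in replicate pairs had Spearman correlations of 0.837, 0.816 and 0.804. These describe peaks that share libraries and that the IDR step had selected for agreement.

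Since the signal was made from the same replicates and a top list is limited by signal, support from top lists must fall with strength, and the whole lists are given beside it. Of the 319 strongest deep intronic peaks (signal 562.6 and above) 100% were in all 3 top lists, of the next 319 94.7%, of the 319 after them 71.5%, and of the weakest 318 15.7%. In the whole lists, all 3 replicates held 100%, 96.9%, 95.9% and 95.0% of these groups. The strongest 319 had a median width of 257 bp against 440 bp in each of the other groups. A width of exactly 440 bp was shared by 916 deep intronic peaks (71.8%), so these medians largely reflect how often that width recurs. They do not show that strong peaks are narrow, and the strongest of all was 439 bp wide.

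The strongest deep intronic peak lay in the gene spans of Hr3, CG12912 and CG46321, at chr2R:10219870-10220308. Hr3 encodes a nuclear receptor of the ecdysone cascade, and the summit lay 7867 bp downstream of its TSS. It ranked 84, 64 and 49 in replicates 1, 2 and 3, so all 3 replicates placed it among their strongest 100 entries. The second, in CG32486, ranked 68, 93 and 79. The third lay in Dys, the fly dystrophin gene, 4539 bp upstream of the nearest TSS, and ranked 79, 92 and 72. Only these 3 of the 20 strongest ranked within the first 100 of every replicate.

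The host genes of the following peaks are given with what they encode, and no grouping of them was tested. The gene tara (taranis), of the trithorax group, held both the fourth and the sixth, which ranked 115, 122 and 69 and 77, 143 and 88 in replicates 1 to 3. Kdm2, which encodes a histone demethylase of the JmjC family, held the fifth, at ranks 111, 95 and 101. The seventh was in simj, for the p66 subunit of the NuRD chromatin remodelling complex, with ranks 98, 102 and 118. The summit of the eighth, in the H3K4 methyltransferase gene trx, lay 3024 bp from the TSS, just inside the lower limit of the rule, and ranked 144, 134 and 113. Gug, which encodes the corepressor Atrophin, held 2 of the 20, at IDR ranks 205 and 298. The H3K79 methyltransferase gene gpp held the nineteenth, at ranks 263, 375 and 235.

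Hr4, a further nuclear receptor of the ecdysone cascade, held the ninth, whose summit lay 9982 bp from the TSS, close to the upper limit of the rule, and ranked 126, 172 and 137. Btk, a Tec family tyrosine kinase, held a peak at ranks 221, 303 and 201. In mam, which encodes the Notch co-activator Mastermind, the summit ranked 323, 211 and 292, and the nearest TSS was that of another gene, CG18371, 3425 bp away. The peak in cic, for the HMG-box repressor Capicua, ranked 396, 319 and 300. The remaining peaks of the 20 lay in CG9328, Pits, Lrch, CG34417 and osp, with IDR ranks between 179 and 294. Lrch and osp were the ones for which replicate 3 stood well below the other replicates, at rank 318 against 172 and 167 for Lrch and at 377 against 266 and 246 for osp.

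**Figure D2:**
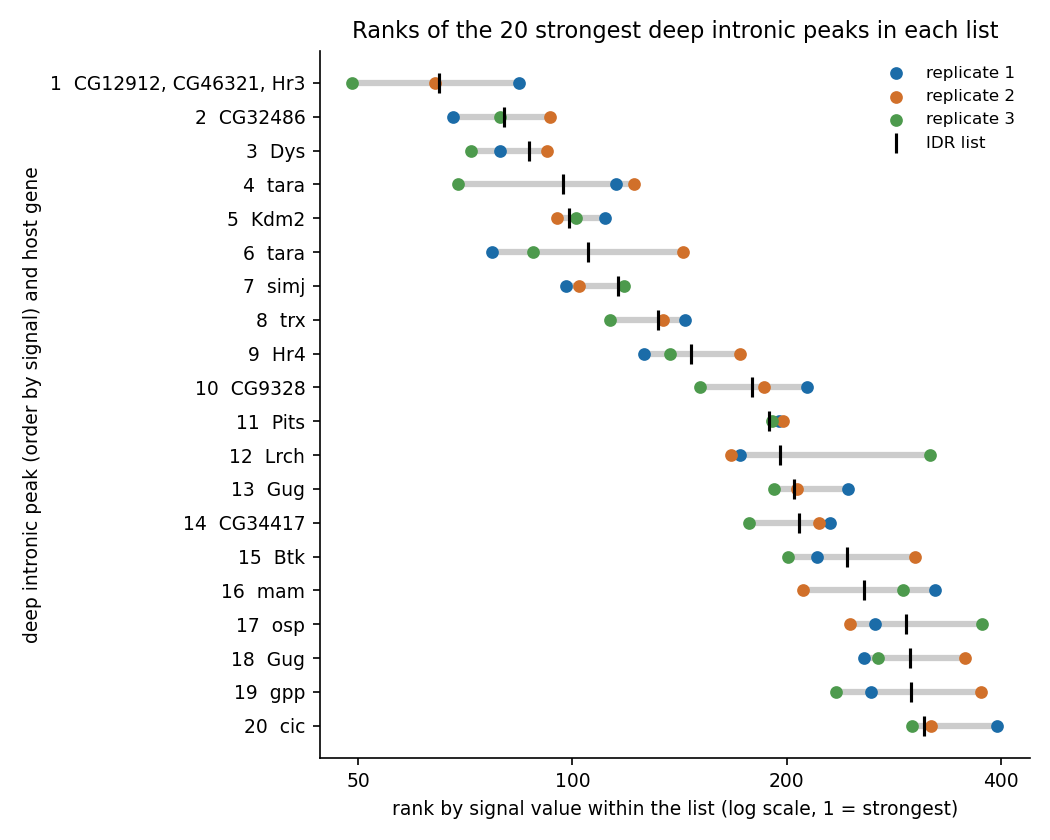
Rank by signal value (x axis, log scale, 1 = strongest) of the 20 strongest deep intronic peaks (y axis, with host gene) in each replicate list (points) and in the IDR list (black ticks), with grey bars joining the lowest and highest replicate rank. Peak 1 ranked 49 to 84 and peak 20 ranked 300 to 396.

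The rule, which keeps summits off exons and more than 3 kb from a TSS, itself favours long introns and distant exon edges. The medians that follow describe the peaks and have no comparison beside them. The shortest intron holding a summit had a median length of 12627 bp, the median distance to an exon edge was 2919 bp, and 41 summits (3.22%) were within 200 bp of an edge. In at least 1 transcript, 741 (58.1%; 58.3 ± 1.26% in the replicate top lists, SD, n = 3) were in the first intron, which fills 46.7% of the territory. Downstream of their nearest TSS lay 70.0% (70.0 ± 0.704%). To ask whether the position within introns was particular to the IDR peaks, they were compared with 3323 entries of the pooled list that lay in the same territory over 1 kb from any IDR summit, called lower-ranked entries. No difference was shown in any of 4 positions (Fisher's exact test, two-sided, adjusted over 4). By these exact tests, 55.5% of the lower-ranked entries were in a first intron (adjusted p = 0.237), 67.9% were downstream of their nearest TSS (0.237), 4.15% were within 200 bp of an exon edge (0.237), and 1.47% were within 500 bp of the TSS of a non-coding gene, against 1.88% of the deep intronic peaks (0.356). Annotated transposable elements fill 6.90% of the territory, and 2 deep intronic summits (0.157%) and 3 lower-ranked entries (0.0903%) lay in one. The aligner is not given, so how reads from repeated sequence were treated is unknown. These counts therefore do not show that such elements were avoided.

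Base composition set the deep intronic summits apart from their own flanks. Within 50 bp of the summit, 65.2% of bases were A or T, against 58.5% in a pair of equally wide windows whose centres lay 500 bp away, a difference of 6.71 percentage points. The summit window was richer in A/T than its flanks at 903 peaks and poorer at 353 (exact sign test, two-sided, p = 6.32e-56 over peaks). Replicate top lists gave 5.66, 6.95 and 6.41 points, a mean of 6.34 ± 0.645 (SD, n = 3). The lower-ranked entries of the same introns had 58.9% at the summit and 59.1% in the flanks. Windows above 65% A/T made up 57.6% of deep intronic summits and 27.1% of lower-ranked entries (odds ratio 3.65, Fisher's exact test, adjusted p = 1.97e-80 over 4 comparisons, with the measure chosen after seeing the data). By the same exact test this share was 44.7% of promoter peaks (adjusted p = 2.03e-14), 52.9% of near intronic peaks (adjusted p = 0.0145) and 58.9% of distal intergenic peaks (adjusted p = 0.588).

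A/T content peaked sharply and had a trough on each side. In windows of 51 bp it was 66.0% at the summit, 56.1% at 200 bp upstream and 55.3% at 200 bp downstream on the plus strand, and 59.4% and 59.0% at 1000 bp. Promoter peaks rose from a lower level, 56.1% at 1000 bp, to 62.7%, and showed no trough below that level at 200 bp. The lower-ranked entries of the same introns also dipped, from 58.5% and 58.3% at 1000 bp to 57.0% and 56.6% at 200 bp, so a trough was not particular to the IDR peaks. Stronger deep intronic peaks were richer in A/T, with 67.7% in the strongest 319, 65.7% and 64.0% in the groups that followed, and 63.5% in the weakest 318.

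**Figure D3:**
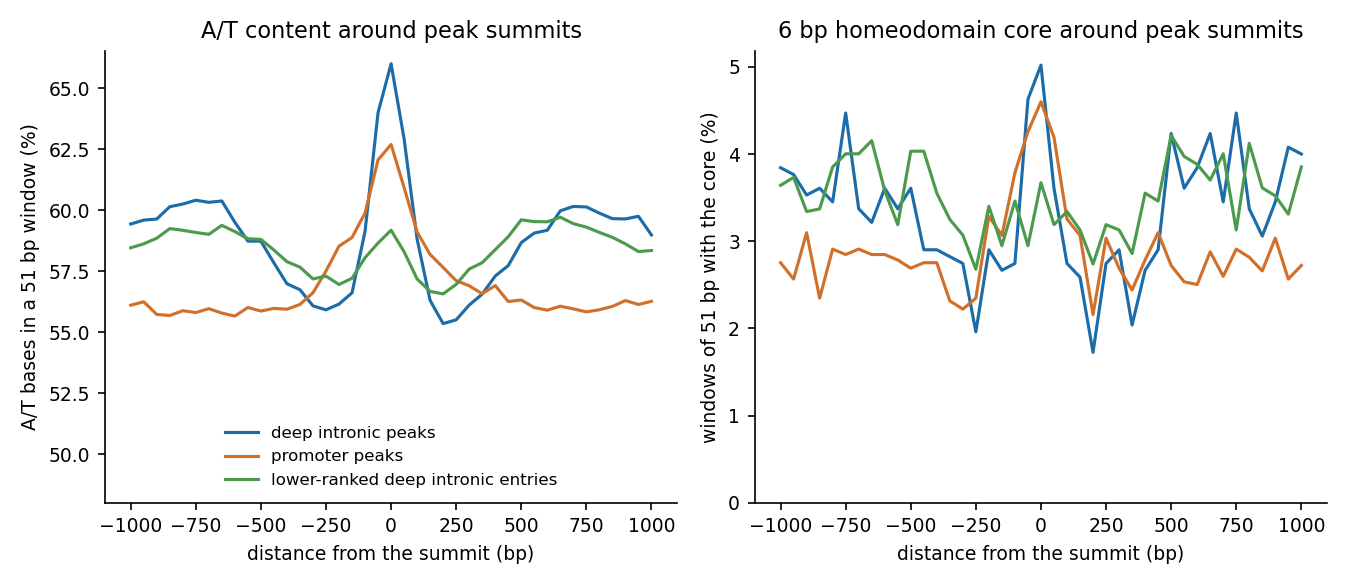
Share of A/T bases (left, %) and share of 51 bp windows with the 6 bp homeodomain core on either strand (right, %) by distance from the summit in bp, for deep intronic peaks, promoter peaks and lower-ranked entries of the deep intronic territory. Deep intronic peaks reached 66.0% A/T at the summit, between troughs of 56.1% and 55.3% at 200 bp on either side, while lower-ranked entries reached 59.2%.

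The short words of the summit windows were counted for all hexamers, each merged with its reverse complement, and tested within peaks against the flanks (exact matched test, two-sided, Benjamini-Hochberg adjusted over all hexamers). At adjusted p under 0.05, 242 hexamers (11.6%) were more frequent at summits and 320 (15.4%) less frequent. The calls followed base composition. Of the 36 hexamers made only of A and T, 33 were more frequent, as were 141 of the 192 with 5 such bases and 54 of the 492 with 4, while of 1360 with 3 or fewer only 14 were.

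**Figure D4:**
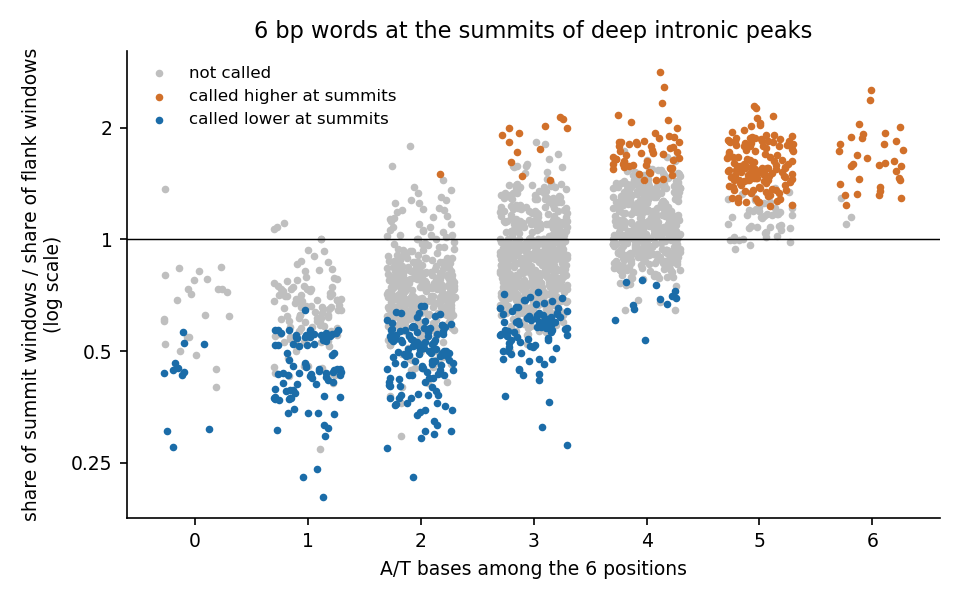
Ratio of the share of summit windows to the share of flank windows that hold each hexamer (y axis, log scale), by the number of A/T bases in the hexamer (x axis, points spread sideways), for the 1275 deep intronic peaks. The called hexamers turn from lower at summits (blue) to higher (orange) as A/T bases increase, with a median ratio of 0.552 for hexamers with 1 A/T base and 1.59 for those with 6.

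The palindrome TAATTA, a core for many homeodomains, was among the least raised of the A/T hexamers. It was in 9.96% of summit windows and 7.69% of flank windows, a difference of 2.27 points that did not pass the exact test (adjusted p = 0.0687), and by ratio it ranked 32 of the 36 made only of A and T. The difference was 1.10, 2.51 and 2.89 points in the top lists of replicates 1, 2 and 3 (exact test, adjusted p = 0.443, 0.0418 and 0.0127). It passed with 1 summit per cluster (exact test, adjusted p = 0.0459) and in the strongest 50% of the IDR list (4.38 points, exact test, adjusted p = 0.0217). It did not pass without replicate 1, 2 or 3 (exact test, adjusted p = 0.0636, 0.0829 and 0.0618). There the difference was no smaller, at 2.63, 2.54 and 2.74 points, but fewer peaks entered, 990, 986 and 966. With gene starts in place of all TSSs it did not pass either (exact test, adjusted p = 0.0664). Nor did TAATTA pass with windows of 25 or 100 bp on each side (exact test, adjusted p = 0.346 and 0.0674) or flanks at 1000 bp (exact test, adjusted p = 0.237). Against the lower-ranked entries, 6.41% of which held it, deep intronic summits had it more often (odds ratio 1.62, Fisher's exact test, adjusted p = 0.000995 over all hexamers). In that comparison 209 hexamers (10%) were more frequent in the deep intronic peaks and 314 (15.1%) less frequent. The shorter TAAT on either strand was in 74.0% of deep intronic summit windows (944 peaks) and 61.5% of their flanks, in 67.1% and 54.9% for promoter peaks, and in 64.7% and 64.7% for lower-ranked entries. Among the strongest 319 deep intronic peaks 82.4% of summit windows held TAAT and 11.6% held TAATTA, and among the weakest 318 the shares were 72.3% and 10.4%.

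Hexamers with the largest ratios were of 2 kinds. Words made only of A and T were ATATTA, in 18.9% of summit windows and 7.49% of flank windows (exact test, adjusted p = 7.30e-21), and AATATT, in 20.2% and 8.51%, which overlap by 5 bases. Words of 4 A/T bases were TACCTA (3.76% against 1.33%, the highest ratio, 2.82), AGTGTA (7.69% against 2.98%, ratio 2.58, exact test, adjusted p = 3.79e-08) and ATAGGA (4.47% against 1.92%). The difference for AGTGTA was 4.40, 4.07 and 5.74 points in the 3 replicate top lists. For ATAGGA these lists gave less, 1.26, 1.60 and 1.46 points, than the 2.55 points of the IDR list. Unlike A/T content, AGTGTA varied little with strength, at 7.84% of the strongest 319 and 8.49% of the weakest 318. AGTGTA was in 5.79% of promoter summits, 6.97% of near intronic, 8.41% of distal intergenic and 5.54% of lower-ranked ones.

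Few words poor in A/T were raised, and several of these overlap. ACACTG was in 6.20% of summit windows and 2.90% of flanks. CACTGA, shifted by 1 base, was in 7.29% and 3.61%, and ACTGAG, shifted once more, in 5.18% and 2.82%. On its other strand AGTGTA reads TACACT, which overlaps ACACTG by 5 bases, so these counts share sites. CAGTGC, at 6.82% against 4.55%, was the one raised hexamer with 2 A/T bases. The lowest ratios belonged to CCCAGG (0.549% against 2.71%), CCAGCC (1.10% against 4.78%) and CGTGGA (0.549% against 2.39%).

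Motifs of other factors separated deep intronic from promoter summits in part. CGATAG, part of the site of the promoter factor DREF, was in 2.43% of deep intronic and 6.66% of promoter windows (odds ratio 0.349, Fisher's exact test, adjusted p = 5.98e-08 over 27 comparisons). TTTATG, a core of Caudal and AbdB type homeodomains, was in 13.96% and 10.3% (exact test, adjusted p = 0.00687). It was not called over its own flanks (11.7%, exact test, adjusted p = 0.141) or over the lower-ranked entries (12.9%, adjusted p = 0.524). The repeat CACACA was in 10.4% of deep intronic and 7.57% of promoter windows (exact test, adjusted p = 0.0224). CACACA was also more frequent than at distal intergenic summits, 5.71% of which held it (exact test, adjusted p = 0.00687), but it was no more frequent at deep intronic summits than in their flanks (10.9%, adjusted p = 0.784). The GATA factor word TGATAA was raised over the flanks (10.7% against 5.96%, exact test, adjusted p = 2.58e-05), a call lost with windows of 25 bp on each side (adjusted p = 0.124) or flanks at 1000 bp (0.0689). It did not pass against any of the 3 classes of IDR peaks, nor did TAATTA. The other homeodomain cores did not pass against flanks or classes, with TAATTG in 10.8% of summit and 11.0% of flank windows and TAATCC in 2.90% and 2.86%. Nor did the GAGA factor word GAGAGA, in 4.71% and 4.90%, or CAGGTA, the word of the early zinc finger factor Zelda, in 2.43% and 2.16%.

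Of 3021 protein-coding genes with deep intronic territory, 676 (22.4%) held at least 1 deep intronic peak, and in the replicate top lists 22.3 ± 1.02% did (SD, n = 3). A single peak was found in 374 of them, 2 in 147, 3 in 69 and 5 or more in 41, which together held 268 peaks. Host genes had more room, with a median of 11172 bp of territory against 1570 bp in genes without a peak. For 951 peaks (74.6%) the nearest TSS belonged to a gene that also contained the summit, and for 324 it belonged to another gene. Peaks also clustered, with 290 (22.7%) within 1 kb of another deep intronic summit, and 1122 clusters remained when such neighbours were joined.

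Host genes more often had an IDR peak at their own promoter. Of the 676 hosts, 374 (55.3%) had one within 500 bp of a TSS, against 727 of 2345 (31.0%) of the genes whose deep introns held none. In replicates 1, 2 and 3 taken alone the shares were 60.8%, 56.9% and 47.4% of hosts and 32.6%, 31.7% and 28.6% of other genes, with every host value above every other. The gap was present at each size of territory that held hosts, at 55.2% against 34.7% for genes with 501 to 3028 bp, 52.8% against 28.7% for 3032 to 8208 bp, and 56.5% against 29.6% for 8218 to 108335 bp. Genes were split by territory only and not by their number of TSSs, and no test was made of this difference.

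The gene with the most deep intronic peaks was tara (FBgn0040071, chr3R:16225651-16260329), with 15 peaks in 20847 bp of territory. Their signal had a median of 358.0 and ran from 226.1 to 3487.6, and 7 of the 15 were in all 3 replicate top lists. Eip75B, for a nuclear receptor induced by ecdysone, held 12 and mam 11. Then came sick, bun and Mef2 with 10 each. The gene bun encodes a TSC-22 family regulator of growth, and Mef2 the MADS-box factor of muscle differentiation. The FOG-family cofactor gene ush held 8, as did px, known for wing vein patterning. Raf, the kinase of the Ras pathway, and beat-Ib, of the Beaten path immunoglobulin family, held 7 each. The genes shn, RhoGAP19D and fz also held 7, but their strongest peaks ranked lower, and they are not among the 10 genes described here. These 10 held 98 peaks, and 8 of them had an IDR peak at their own promoter, the exceptions being Raf and beat-Ib. All 10 held deep intronic summits in each replicate top list.

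These counts include summits that lie close together. Joining summits within 1 kb left 9 clusters in tara, 8 in Eip75B, 6 in mam, 8 in sick, 9 in bun and 5 in Mef2. Many such neighbours fell within a single replicate entry. In Eip75B, for example, summits 18029798 and 18029999 on arm 3L both matched the same entries, of ranks 804, 1557 and 1369 in replicates 1, 2 and 3. In beat-Ib, summits 15911183 and 15911395 on arm 2L shared a single deposited interval, so that region was counted more than once. Over all deep intronic peaks, 1257 matched an entry of the whole list of replicate 1, and these entries numbered 1181. Replicate 2 gave 1185 entries for 1260 peaks and replicate 3 gave 1190 for 1265. All 7 peaks of Raf were in all 3 top lists, as were 10 of 11 in mam, whereas px had 4 of 8. Outside these 10 genes, fz also had all 7 of its peaks there. Over all deep intronic peaks such support falls with signal, but these 10 genes did not follow the order of their median signals. The median was 680.9 in Raf, 339.3 in mam and 318.4 in px. With higher medians than mam, tara (358.0) had 7 of 15 peaks in all 3 top lists and Mef2 (437.7) 7 of 10. Why genes differed was not tested.

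**Figure D5:**
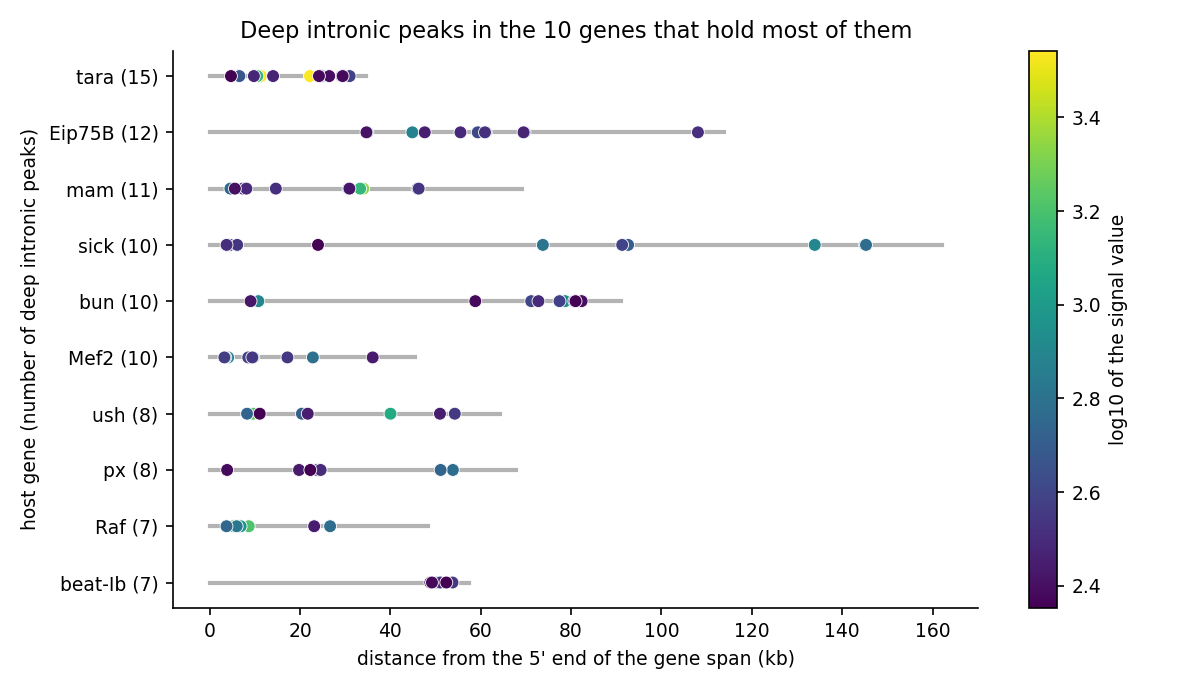
Positions of deep intronic peaks (points, coloured by log10 of the signal value) along the 10 genes that hold most of them (grey lines, y axis, number of peaks in brackets), as the distance from the 5′ end of the gene span in kb (x axis). Peaks are spread along tara, while all 7 peaks of beat-Ib lie near its 3′ end.

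Gene groups of embryonic development were then described by how many of their members with deep intronic territory held a peak, beside 22.4% of all such genes, for which the median territory was 3028 bp and the density 71.1 peaks per Mb. The lists were chosen with results of these data known. In every list but the Polycomb and Trithorax one the median territory was larger than 3028 bp. Over all such genes the share of hosts rose with territory. It was 7.68% at 501 to 3028 bp, 26.1% at 3032 to 8208 bp and 55.8% at 8218 to 108335 bp. The densities are therefore given with the counts and no test was made. In the Polycomb and Trithorax list, 5 of 15 genes were hosts in the IDR list and in each replicate, and they held 26 peaks at 370 per Mb with a median territory of 2078 bp. With 15 of these peaks, tara decided much of that density, which was 223 per Mb in the other genes. The hosts included tara, trx with 5 peaks, and Psc, a subunit of Polycomb repressive complex 1, whose single peak ranked 610, 816 and 769 in replicates 1 to 3.

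Genes of growth control held 28 peaks at 249 per Mb in 7 of 12 genes, and at 219 per Mb without bun. The insulin receptor gene InR had 4 peaks, the strongest at ranks 1040, 1075 and 1260. Tlk, for the Tousled-like kinase, had 3, the strongest at ranks 1947, 1021 and 744, so that replicate 1 stood below the others. The strongest of the 10 in bun ranked 1639, 1423 and 1829.

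Ligand and receptor pathways differed among themselves. In the EGFR, FGF and Ras list 9 of 16 genes were hosts (9, 10 and 9 in the replicates). These hosts held 25 peaks, at 170 per Mb or at 135 per Mb without Raf. They included aos, for the secreted EGFR inhibitor Argos, at ranks 297, 420 and 306, and S, for Star, needed to release EGFR ligands, at ranks 330, 361 and 411. The strongest of the 7 Raf peaks ranked 495, 525 and 382. In the Dpp/BMP list 7 of 11 genes were hosts in the IDR list and in every replicate. The density was 166 peaks per Mb, or 128 per Mb without shn. Dad, for the inhibitory Smad, had 4 peaks, the strongest at ranks 430, 387 and 266. The glypican gene dlp had 1 at ranks 492, 542 and 455, and shn, for a zinc finger cofactor of Dpp signalling, had 7, the strongest at ranks 667, 907 and 651.

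In the Notch, Wnt and Hedgehog lists the share of hosts was nearer that over all genes. Of 10 Notch genes 3 were hosts, at 119 peaks per Mb, of which mam held nearly all, since the other genes had 2 peaks at 25.2 per Mb. Apart from mam these were kuz, for the protease that cleaves Notch, and fng, for the glycosyltransferase that modifies it, each with 1 peak, at IDR ranks 5748 and 6398. Of 17 Wnt genes 5 were hosts at 114 per Mb, or 82.3 per Mb without fz. These hosts were led by arr, the LRP co-receptor gene, with 3 peaks and the strongest at ranks 1498, 1839 and 1180. The receptor genes fz and fz2 had 7 and 4. Of 4 Hedgehog genes only the receptor gene ptc was a host, giving the list 34.2 per Mb, with 1 peak at ranks 2336, 1891 and 2556.

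In the ecdysone list 10 of 14 genes were hosts (10, 10 and 8 in the replicates), with a large median territory of 20702 bp. They held 28 peaks at 102 per Mb, or 72.3 per Mb without Eip75B, near the 71.1 over all genes. Besides Hr3, Hr4 and Eip75B, EcR, the ecdysone receptor gene, had 1 peak at ranks 1357, 843 and 939. Genes of RNA-binding regulators had 10 hosts of 20 at 64.1 per Mb, with a median territory of 15087 bp. They included how at ranks 703, 753 and 534, Rbfox1 with 5 peaks and the ELAV family gene fne with 3. Axon guidance and adhesion genes had 13 of 30 in the IDR list and in each replicate, at 74.8 per Mb. The netrin receptor gene fra had a peak at ranks 1276, 1348 and 975, the adhesion gene Fas3 at 1739, 1812 and 1755, and caps at 1942, 2130 and 1734.

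Muscle genes had 6 hosts of 20 (8, 5 and 5 in the replicates) at 69.7 per Mb, or 41.3 per Mb without Mef2, including Zasp52, for a protein of the Z disc, at ranks 1006, 1116 and 1063. The strongest Mef2 peak ranked 1362, 1078 and 2088, and the strongest in rols, a myoblast fusion gene, 3689, 3666 and 2685. Septate junction and glial genes had 4 hosts of 10 at 114 per Mb, or 62.1 per Mb without Nrg, among them Nrg with 4 peaks, dlg1 and scrib. The scrib peak, at ranks 11954, 5193 and 5732, was outside the top list of replicate 1.

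In the homeobox list 10 of 42 genes were hosts (7, 8 and 10 in the replicates), at 35.2 peaks per Mb with a median territory of 7465 bp. The posterior patterning gene cad had 1 peak at ranks 1264, 1196 and 1075, the Hox gene Antp 2, the stronger at 2225, 2353 and 2364, and the POU homeodomain gene nub 1 at 4023, 2806 and 2698. Of 22 ion channel genes 5 were hosts in the IDR list, and 8, 6 and 9 in the replicates, at 41.5 per Mb. They included the potassium channel genes Shab, with a peak at ranks 1468, 1117 and 1121, and Sh, with 4 peaks, and Ih, for a channel opened by hyperpolarisation, with 1.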

How the data were processed

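Deep intronic peaks of 3 replicates of CG18599-GFP embryos were taken from the peak lists that the authors deposited on dm6. Neither aligner, peak caller nor IDR threshold was given in the sources used here. The deposited signal value, of unstated scale, served for ranking. Values of a further deposited column were taken to be −log10 q-values. Summits were read from the deposited peak offset. Replicate and pooled lists have a fixed length of 30000 entries, so their number says nothing of enrichment. The lists carry no read numbers, which leaves the depth unknown and the counting error unstated.

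Gene models were Ensembl release 115, and the sequence was the RefSeq Release 6 assembly. Python 3.11.15, numpy 2.4.6, scipy 1.17.1 and pandas 2.3.3 were used. A replicate match was the strongest entry within 250 bp. Two-sided Fisher's exact tests compared shares, and hexamers were compared by an exact test in which, given how many of a peak's 3 windows hold the hexamer, each is equally likely to be the summit window. Both were Benjamini-Hochberg adjusted within their family, and the hexamer test was tested on simulated data. Values of replicate top lists are means ± SD. Where nothing says that replicates came from separate collections, their spread may be technical.

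The rule, gene lists and motifs were chosen with earlier results of these data known. Named genes were the hosts of the 20 peaks with the highest signal, the 10 genes with most peaks, and up to 3 hosts with the strongest peak in each of 14 lists. Named hexamers were 9 motifs, the 5 highest and the 3 lowest ratios among those called, and words poor in A/T chosen after their values were seen. Comparisons of hexamers, A/T share and transposable elements with the lower-ranked entries were also added after seeing the data, as were list densities without the gene with most peaks and recovery in whole replicate lists by strength. The list genes Dl, nos and Tor were not matched. Alternatives are described in the closing section.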

Additional observations from a re-analysis of the deposited data

How the results depend on the processing

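Leaving out 1 replicate meant asking for top-list support in the other pair, while the IDR list and its signal still came from all 3. Such support falls with signal, so this filter also favoured stronger peaks. It gave 966 to 990 deep intronic peaks in 555 to 564 host genes, with 211 to 227 hexamers higher and 271 to 307 lower. A/T differences were 7.22 to 7.52 points, against 6.71 for all deep intronic peaks. The difference in the share above the median signal ranged from -13.5 to -6.63 points against promoter, from -5.92 to -2.77 against near intronic and from 0.365 to 2.26 against distal intergenic peaks. The differences in recovery ranged from -5.93 to 2.52, from -3.60 to 0.0658 and from -1.24 to 1.00 points in the same order, so none of the 3 kept its direction.

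With the strongest 50% of the IDR list there were 594 peaks, 393 host genes, 157 hexamers higher and 180 lower, and recovery differed by 4.80 (exact test, adjusted p = 5.60e-06), 0.202 and -1.32 points. Whole replicate lists gave 5.80 (exact test, adjusted p = 1.61e-12), 0.343 and -1.15 points, and a tolerance of 500 bp gave -0.0605 against promoters. With 1 summit per cluster the difference in the share above the median signal from near introns was -3.94 points. Windows of 25 bp on each side gave 131 hexamers higher and 99 lower, and the top list of replicate 1 gave 211 lower, where the main counts were 242 and 320. Fewer peaks enter the counts of the strongest 50% and less sequence those of the shorter windows. With gene starts in place of all TSSs, the share within 200 bp of an exon edge turned 1.41 points higher than in lower-ranked entries (exact test, adjusted p = 0.115). The causes of the other changes were not tested.

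Ranking by the q column gave no value, since 4891 IDR peaks (55.2%) stand at its maximum. No paired analysis was possible because there is only 1 group. Depth is unknown and no untagged chromatin was analysed here, so what either limits was not measured.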
